A study of Homo sapiens with 6 samples.

Results

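The 8 genes described here encode ligands and receptors of the neurotrophin and GDNF systems, and were taken by name from the 47470 genes of the count files. They are the ligands BDNF, NTF3 and GDNF and the receptors NTRK2, NTRK3, NGFR, RET and GFRA1. RNA-seq was done on HEK293T, a human line of embryonic kidney origin made with the large T antigen of SV40. One group was grown for 1 day in medium with 1 mM valproic acid (VPA), which blocks histone deacetylases, and the other group received no VPA. There were 3 libraries per condition. The genotype label of the untreated libraries reads WT, and that of the treated libraries repeats the treatment. No vehicle control, second dose or second time point was included among these libraries. Nothing in the labels ties the replicates to separate cultures, so that p-values measure the spread between these libraries, which may be technical.

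Neurotrophins are secreted proteins that keep neurons alive and shape their connections. BDNF binds the receptor tyrosine kinase TrkB (NTRK2), neurotrophin-3 (NTF3) binds TrkC (NTRK3), and p75NTR (NGFR), a member of the tumour necrosis factor receptor family, binds all of them, including their uncleaved precursors. GDNF signals through a pair of receptors, in which GFRA1 is anchored to the membrane surface and binds the ligand, and RET is the tyrosine kinase that carries the signal inward. Outside the nervous system GDNF from the metanephric mesenchyme drives RET-expressing cells to form the branches of the embryonic kidney.

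All 8 genes were rare transcripts in untreated cells, and 7 of them were more abundant after VPA. Together they took 190, 212 and 258 counts of the untreated libraries and 1160, 1118 and 1123 counts of the VPA-treated libraries, in libraries of 18622267 to 18828495 counts on genes. BDNF, NTRK2, NTRK3, NGFR, GDNF, RET and GFRA1 were each higher in every VPA-treated library than in every untreated one, as were 34.8% of all tested genes, while 31.0% of them were lower in every VPA-treated library. NTF3 was hardly detected in either condition. A change in RNA per cell and a change in the number of cells that express a gene cannot be told apart in these bulk libraries.

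**Figure D1:**
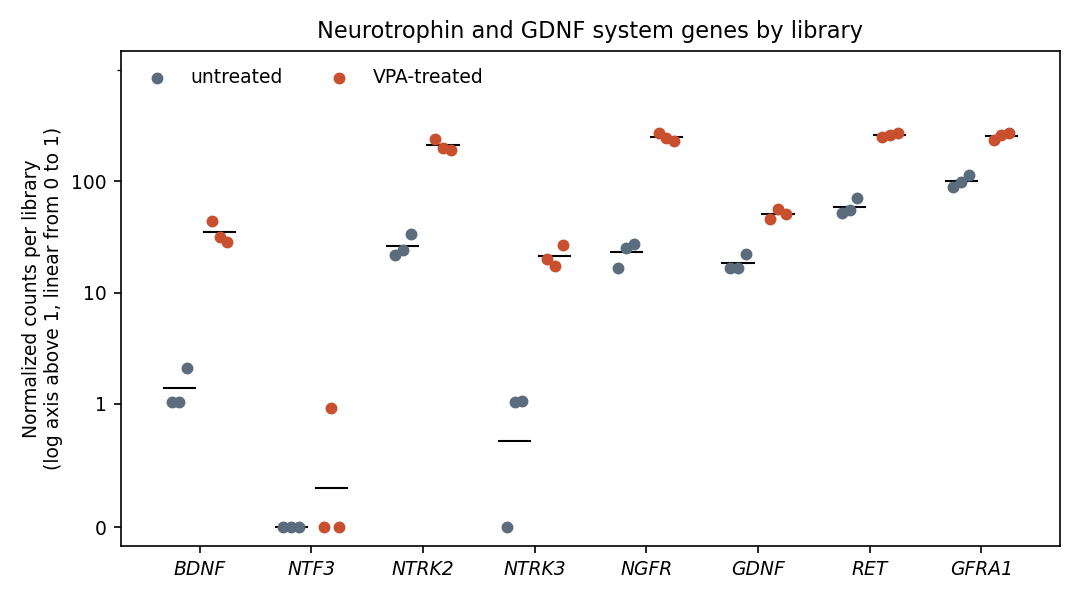
TMM-normalized counts of the 8 genes in each library, with 3 untreated (blue-grey) and 3 VPA-treated (red) points per gene and a bar at each mean. The vertical axis is linear from 0 to 1 and logarithmic above 1. In 7 genes the conditions do not overlap, and NTF3 has 1 count in 1 library.

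Counts were compared with edgeR's quasi-likelihood test over 15298 genes that passed its filter on low counts, with Benjamini-Hochberg adjustment over all of them. A gene was called up-regulated when its adjusted p was under 0.05 and its log2 fold change reached 1 or more, the thresholds of the study. Over all tested genes 12.0% were up-regulated by this rule and 0.503% were down-regulated, and by adjusted p alone 32.9% were higher and 30.0% lower. Each of the 8 genes had a mean under 200 normalized counts, and among tested genes under this mean, a limit chosen after the values were seen, 27.1% were up-regulated, against 3.38% of those at or above it. BDNF and NTRK3 passed the filter through their VPA-treated libraries alone, so a difference in them was a condition of being tested. The other 5 up-regulated genes had at least 10 counts in all 6 libraries. When only genes with that many counts in every library were tested, these 5 were tested and all 5 were up-regulated, against 8.49% of the genes tested there. This share was not matched to the count level of the 5. The 8 genes were also chosen with earlier results of these data known, so they are not an unbiased set.

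The start sites of these genes differ widely in base composition, and the sequence before the start is shown for GDNF, its receptor pair and BDNF, to set beside their responses. The bases are from a RefSeq promoter table (assembly GRCh38.p14), in which 7 of the 8 genes were matched by symbol. They are written 5′ to 3′ and run up to the annotated start or to the first base that GENCODE 44 places in an exon of the gene. Capitals mark the GC box, searched as GGGCGG on both strands.
RET: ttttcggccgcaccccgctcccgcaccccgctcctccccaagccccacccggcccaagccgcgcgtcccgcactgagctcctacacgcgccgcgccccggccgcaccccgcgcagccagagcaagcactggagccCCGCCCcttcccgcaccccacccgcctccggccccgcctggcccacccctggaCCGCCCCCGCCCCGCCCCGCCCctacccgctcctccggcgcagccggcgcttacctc
GFRA1: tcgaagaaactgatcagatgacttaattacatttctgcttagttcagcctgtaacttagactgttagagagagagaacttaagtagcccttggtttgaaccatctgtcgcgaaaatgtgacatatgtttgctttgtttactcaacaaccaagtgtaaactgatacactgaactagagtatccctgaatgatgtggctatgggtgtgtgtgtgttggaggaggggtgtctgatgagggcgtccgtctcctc
GDNF: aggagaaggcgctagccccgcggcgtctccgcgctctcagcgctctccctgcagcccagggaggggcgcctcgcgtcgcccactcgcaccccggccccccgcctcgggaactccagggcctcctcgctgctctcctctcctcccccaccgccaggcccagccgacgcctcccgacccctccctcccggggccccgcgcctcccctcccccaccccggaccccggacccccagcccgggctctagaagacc
BDNF: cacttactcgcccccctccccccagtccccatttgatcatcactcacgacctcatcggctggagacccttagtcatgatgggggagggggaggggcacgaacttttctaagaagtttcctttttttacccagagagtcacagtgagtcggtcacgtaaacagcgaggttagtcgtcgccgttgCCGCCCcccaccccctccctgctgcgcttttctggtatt
The RET sequence is chr10:43076819-43077063 on the plus strand. The others are on the minus strand, at chr10:116274706-116274955 for GFRA1, chr5:37840042-37840291 for GDNF and chr11:27722059-27722280 for BDNF. In the full window of 250 bases before the start, RET had a GC content of 79.6% with 33 CpG dinucleotides and GFRA1 one of 43.2% with 5 CpG dinucleotides. These values place RET above or level with 96.7% of 35116 RefSeq windows of the same length and GFRA1 above or level with 19.4%. GDNF had a GC content of 78% and BDNF of 56%. The GC box occurred 5 times before RET, some copies overlapping, once before BDNF and not before GDNF or GFRA1, while 42.6% of all windows held at least 1 copy. A search for the half-site of the cyclic AMP response element (TGACG), the E-box (CACGTG) and the TATA box (TATAAA) on both strands found none of them in the 4 windows shown, and 21.2%, 6.35% and 10.7% of all windows held them. BDNF has several alternative starts along the gene, and the first of them is the one shown. Which start was in use in these cells was not tested for any of the 4 genes. RET and GFRA1, at opposite ends of this range of composition, were both up-regulated. A link between composition and response was not tested.

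Among the ligands BDNF had the strongest response. BDNF, known for its release by active neurons and its part in synaptic plasticity, lies on the minus strand of chromosome 11 from 27654893 to 27722030. It had 1, 1 and 2 counts in the untreated libraries and 46, 33 and 30 counts in the VPA-treated libraries. The gene was therefore close to undetected without VPA and present in every treated library. The totals of 4 and 109 counts gave a ratio of 25.1 after normalization, with an exact 95% interval of 9.51 to 93.6 that covers counting error only. The fitted log2 fold change was 4.53 with a standard error of 0.43 (adjusted p = 7.55e-09, edgeR), above 99.8% of the tested genes, but this estimate depends on the prior count because of the few untreated counts, and was 3.44 with a prior count of 2.

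BDNF-AS, a noncoding gene on the opposite strand that overlaps BDNF, did not follow it. Its counts were 15, 15 and 8 in untreated and 12, 13 and 21 in VPA-treated libraries, which overlap, with a log2 fold change of 0.15 and a standard error of 0.33 (adjusted p = 0.703, edgeR). The library kit keeps the strand of the RNA, but the strand setting of the counting is not given in the sources used here. Untreated cells thus had more counts on the antisense gene than on BDNF in every library, and VPA-treated cells had fewer.

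GDNF, the ligand of the kidney and of motor and dopaminergic neurons, rose by less than BDNF from a higher start. It lies on the minus strand of chromosome 5 from 37812677 to 37840041. GDNF had 16, 16 and 21 counts in untreated and 48, 59 and 53 counts in VPA-treated libraries. The groups were well apart, with the lowest treated library at more than double the counts of the highest untreated one. Normalized counts rose from 18.4 ± 3.11 to 51.1 ± 5.43 (SD, n = 3 per condition), a 2.76-fold increase. Its log2 fold change was 1.47 with a standard error of 0.21 (adjusted p = 2.38e-06, edgeR). When the test asked for a change larger than the fold change threshold itself (glmTreat), GDNF was no longer called (adjusted p = 0.062). GDNF-AS1, which overlaps it on the opposite strand, had 7, 5 and 4 counts in untreated and 10, 7 and 13 in VPA-treated libraries and was not tested.

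NTF3, the ligand of TrkC, stayed at the limit of detection. This gene, on the plus strand of chromosome 12 from 5430332 to 5495299, had 0 counts in all 3 untreated libraries and 0, 1 and 0 counts in the VPA-treated libraries. At this depth a total of 0 allows up to 3 counts, so that a change in NTF3 was not detectable. Without a filter on low counts it was tested and was not called.

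Among the neurotrophin receptors NGFR and NTRK2 reached the highest counts. NGFR, the p75 receptor of all neurotrophins, lies on the plus strand of chromosome 17 from 49495293 to 49515008. It had 16, 24 and 26 counts in untreated and 283, 254 and 241 counts in VPA-treated libraries. The lowest treated library exceeded the highest untreated one by a wide margin. Normalized counts rose from 23.0 ± 5.67 to 249 ± 20.5 (SD, n = 3 per condition), a 10.8-fold increase. Its log2 fold change was 3.43 with a standard error of 0.15 (adjusted p = 2.36e-14, edgeR). NGFR had the smallest adjusted p of the 8 genes. The antisense gene NGFR-AS1 had 0 counts in each untreated and 1 in each VPA-treated library.

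NTRK2 encodes TrkB, the kinase receptor of BDNF, and spans 358533 bases of chromosome 9 from 84668522 to 85027054 on the plus strand. It had 21, 23 and 32 counts in untreated and 253, 206 and 202 counts in VPA-treated libraries. Normalized counts rose 7.96-fold, from 26.4 ± 6.27 to 211 ± 27.0 (SD, n = 3 per condition). Its log2 fold change was 2.99 with a standard error of 0.16 (adjusted p = 4.96e-13, edgeR). The receptor and its ligand BDNF thus both rose. TrkB exists as a full-length kinase and as shorter forms without the kinase domain, and counts per gene do not separate them. GENCODE 44 lists 58 transcripts for NTRK2, the most of the 8 genes.

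NTRK3, the kinase receptor of neurotrophin-3, was the rarest of the receptors. It lies on the minus strand of chromosome 15 from 87859751 to 88256739. It had 0, 1 and 1 counts in untreated and 21, 18 and 28 counts in VPA-treated libraries. As with BDNF, the gene was almost absent without VPA. The totals of 2 and 67 counts gave a ratio of 30.8 after normalization, with an exact 95% interval of 8.20 to 260 for counting error. The fitted log2 fold change was 4.71 with a standard error of 0.55 (adjusted p = 2.04e-07, edgeR), or 3.12 with a prior count of 2. NTRK3-AS1, which overlaps the gene, had 0 counts in every library. NTRK3 rose while its ligand NTF3 was not detected beyond 1 count.

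RET and GFRA1, the signalling and the binding subunit of the GDNF receptor, were the members with the most counts in untreated cells. RET, on the plus strand of chromosome 10 from 43077069 to 43130351, had 50, 53 and 67 counts in untreated and 261, 274 and 285 counts in VPA-treated libraries. Normalized counts rose 4.43-fold, from 59.1 ± 9.82 to 262 ± 11.5 (SD, n = 3 per condition). Its log2 fold change was 2.15 with a standard error of 0.12 (adjusted p = 6.97e-13, edgeR). The treated libraries lay close together and far above the untreated ones.

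GFRA1, the co-receptor, lies on the minus strand of the same chromosome from 116056925 to 116274705. It had 86, 94 and 109 counts in untreated and 248, 273 and 284 counts in VPA-treated libraries. Normalized counts rose 2.56-fold, from 101 ± 12.8 to 257 ± 17.8 (SD, n = 3 per condition). Its log2 fold change was 1.36 with a standard error of 0.11 (adjusted p = 3.25e-10, edgeR). Its increase was the smallest of the 7, although the conditions did not overlap. LOC107984273, a noncoding gene within the span of GFRA1, had 1, 2 and 2 counts in untreated and 6, 14 and 6 in VPA-treated libraries.

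**Figure D2:**
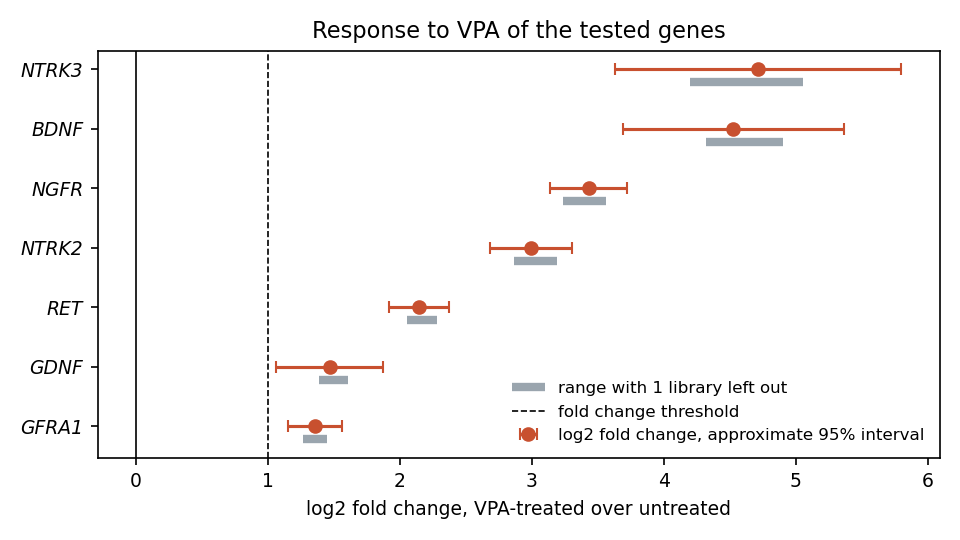
Log2 fold changes of the 7 tested genes, VPA-treated over untreated (points) with approximate 95% confidence intervals (red bars), and the range when 1 library is left out (grey bars). The dashed line marks the fold change threshold of 1. Every interval lies above the threshold, from GFRA1 at 1.36 to NTRK3 at 4.71, and the intervals are widest for NTRK3 and BDNF. The intervals are not adjusted for the number of genes tested, and GDNF was not called by glmTreat (adjusted p = 0.062).

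Ratios of counts were compared within 4 pairs of genes. Untreated cells had fewer counts on RET than on GFRA1, with a log2 ratio between -0.82 and -0.70 in the 3 libraries, while in VPA-treated cells both genes were near equal, with a log2 ratio between 0.0051 and 0.074. The ratio increased by 0.79 on the log2 scale, and the libraries of the conditions did not overlap. The log2 ratio of NTRK2 to NGFR changed from 0.21 ± 0.23 to -0.24 ± 0.071 (SD, n = 3 per condition), a difference of -0.44. The log2 ratio of NTRK2 to NTRK3 went from 4.61 ± 0.74 to 3.29 ± 0.40 (SD, n = 3 per condition). This last difference of -1.32 rests on the 2 untreated counts of NTRK3, and with 2 added to each count in place of 0.5 it was -0.16. The fourth pair, BDNF and NTF3, restates the change of BDNF, since NTF3 had 1 count in all. Each of the 4 ratios had p = 0.1 in an exact two-sided permutation test, also after adjustment over the 4, which is the smallest p that 3 libraries against 3 allow.

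The order of the genes by level per transcript length changed as well. For this comparison between genes the normalized CPM was divided by the length of the longest GENCODE 44 transcript in kilobases. In untreated cells GFRA1 was highest at 0.587 ± 0.075, followed by RET at 0.485 ± 0.081, NGFR at 0.360 ± 0.089, GDNF at 0.236 ± 0.040 and NTRK2 at 0.150 ± 0.036 (SD, n = 3 per condition). Libraries of each neighbouring pair from GFRA1 to GDNF overlapped, while NTRK2 stood clear below GDNF. BDNF followed at 0.016 and NTRK3 at 0.0019, each resting on a handful of counts. In VPA-treated cells NGFR led at 3.90 ± 0.32, ahead of RET at 2.15 ± 0.094, GFRA1 at 1.50 ± 0.10, NTRK2 at 1.20 ± 0.15, GDNF at 0.655 ± 0.070, BDNF at 0.391 ± 0.091 and NTRK3 at 0.057 ± 0.013 (SD, n = 3 per condition). No neighbouring pair in this order overlapped between libraries, with GFRA1 and NTRK2 closest at a lowest value of 1.39 and a highest of 1.37. With the union of all exons as the length NTRK2 fell to 0.341, below GDNF at 0.591, since its many transcripts give it a union of 33162 bases against 9433 bases for the longest transcript. NGFR thus moved from the third place to the first and GFRA1 from the first to the third under both lengths.

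**Figure D3:**
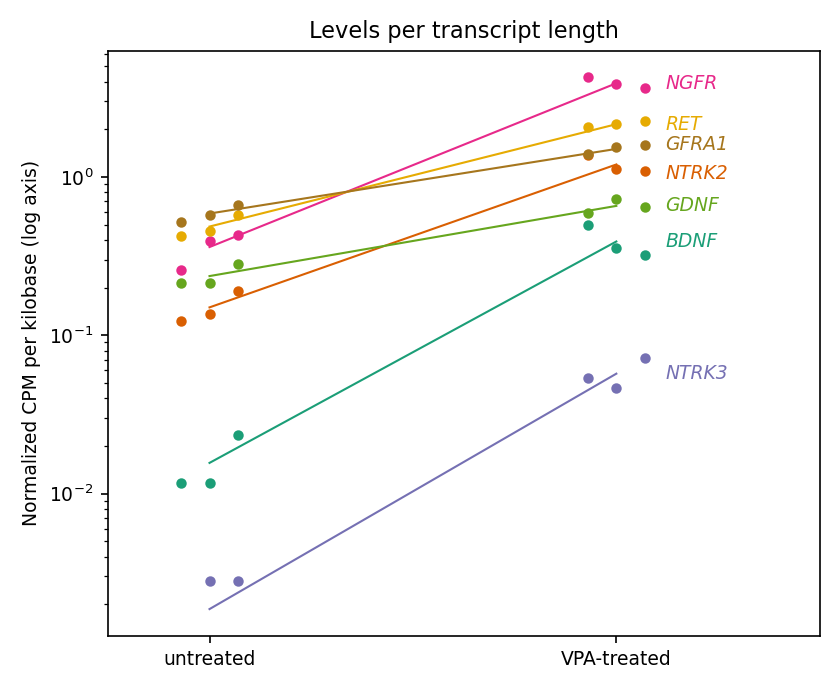
Level of 7 genes as TMM-normalized CPM per kilobase of longest transcript, in untreated and VPA-treated cells, on a logarithmic axis. Points are libraries, slightly offset, and lines join the means of 3 libraries. NTF3 and 1 untreated library of NTRK3 are at 0 and are not drawn, and NGFR rises from 0.360 to 3.90, from the third place to the first.

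Sortilin and its relatives, which bind neurotrophins or their precursors and partner with their receptors, were higher in VPA-treated cells where they were tested. SORCS2, a partner of p75NTR, had 8, 9 and 15 counts in untreated and 107, 93 and 89 in VPA-treated libraries, with a log2 fold change of 3.04 and a standard error of 0.21 (adjusted p = 6.04e-11, edgeR). Only 1 untreated library of SORCS2 was over the limit of the filter, too few to pass without VPA-treated libraries. SORCS1 was also up-regulated with 1.73. SORL1 had 0.98, just under the fold change threshold, and SORT1, the sortilin that binds proneurotrophins, had 0.19, both past the adjusted p alone. SORCS3 had 0 counts in every library. The ligand NTF4 had 4, 4 and 0 counts against 9, 3 and 9 and was not tested.

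In the rest of the GDNF family 5 of 10 genes were tested, 3 were up-regulated and 2 passed the adjusted p alone. Of all tested genes 12.0% were up-regulated, and 32.9% were higher by adjusted p alone. GFRA2, the co-receptor of neurturin, had 2, 1 and 3 counts in untreated and 24, 20 and 18 in VPA-treated libraries, with a log2 fold change of 3.17 and a standard error of 0.43 (adjusted p = 1.60e-06, edgeR). Like BDNF and NTRK3 it passed the filter through its VPA-treated libraries alone. ARTN, the ligand artemin, had a log2 fold change of 1.36, and NCAM1, an adhesion molecule that also serves as a GDNF receptor, one of 1.07. ARTN had 2 untreated libraries over the limit of the filter, too few to pass without VPA-treated ones. SDC3 had 0.67 and NRTN, the ligand neurturin, had 0.60. PSPN, GDF15, GFRA3 and GFRAL had too few counts to be tested, and GFRA4 had 0 in every library.

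Genes that act below or beside these receptors were read from separate lists. The share of up-regulated genes over all tested genes was 12.0%, and by adjusted p alone 32.9% were higher and 30.0% lower. Of 10 tested partners of NGFR 2 were up-regulated, the Nogo receptor relatives RTN4RL1 and RTN4RL2 with log2 fold changes of 1.74 and 1.48, and the median of the list was 0.34, against 0.0058 over all tested genes. RTN4R, the Nogo receptor, had 0.87 and TNFRSF19 0.83, both past the adjusted p alone. PRDM4, the 1 partner lower by adjusted p alone, had -0.33 and was named after its value was seen. Of 8 tested genes of proneurotrophin processing none was called at both thresholds, while 6 were higher and 1 was lower by adjusted p alone. SERPINI1, an inhibitor of tissue plasminogen activator, had the largest log2 fold change there at 0.71, PCSK5 had 0.52, CPE had 0.48, and the convertase PCSK6 fell by 0.46 on the log2 scale.

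Of 23 tested adaptors and early effectors of TRK and RET 4 (17.4%, against 12.0% of all tested genes) were up-regulated and none was down-regulated. The median of their log2 fold changes was 0.077. By adjusted p alone 11 were higher and 7 lower, against 32.9% and 30.0% of all tested genes. RASGRF1, a calcium-dependent activator of RAS, had 5, 7 and 3 counts in untreated and 135, 151 and 147 in VPA-treated libraries, with a log2 fold change of 4.70 and a standard error of 0.22 (adjusted p = 6.80e-14, edgeR). It passed the filter through its VPA-treated libraries alone, so that it had to differ to be tested. GAB2 had 1.23, and SHC2 and SHC3, the SHC relatives expressed in neurons, had 1.15 and 1.06. SHC3 was called at 12, 4 and 5 counts against 21, 15 and 12, which overlap. Only 1 untreated library of SHC3 was over the limit of the filter, too few to pass without VPA-treated ones.

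Feedback genes of the ERK pathway and genes known to be induced by neurotrophins gave 1 up-regulated gene of 11 tested and a median of 0.32. The share of 9.09% was near the 12.0% of all tested genes. ETV4, a transcription factor below RET in the kidney, had 9, 4 and 1 counts in untreated and 14, 12 and 16 in VPA-treated libraries, with a log2 fold change of 1.44 and a standard error of 0.45 (adjusted p = 0.0080, edgeR). This 1 called gene passed the filter through its VPA-treated libraries alone. DUSP5, DUSP4 and EGR1 had 0.91, 0.74 and 0.53 and passed the adjusted p alone. By that rule 32.9% of all tested genes were higher and 30.0% lower. The 2 members lower by adjusted p alone, SPRY2 at -0.35 and SPRED1 at -0.32, were named after their values were seen.

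Among 19 tested genes that act with GDNF and RET in kidney branching 2 were up-regulated and 1 was down-regulated. The up-regulated share of 10.5% was near the 12.0% of all tested genes. By adjusted p alone 5 of the 19 were higher and 9 lower, against 32.9% and 30.0% of all tested genes. PAX2, a transcription factor needed for GDNF and RET expression in the kidney, had 29, 28 and 28 counts in untreated and 149, 146 and 148 in VPA-treated libraries, and its log2 fold change was 2.26 (adjusted p = 6.80e-12, edgeR). WNT11, a target of RET signalling at the branch tips, had 1.18. SLIT2, whose product limits the region of GDNF expression, fell by 1.06 on the log2 scale, and HOXD11 fell by 0.99, past the adjusted p alone. The median of this list was -0.13. Of 14 tested factors known to act at neurotrophin or RET genes 3 were up-regulated, which is 21.4%, against 12.0% of all tested genes. These were TLX3 with 1.80, RUNX3 with 1.40 and NKX2-1 with 1.24, and POU4F1 had 0.49. By adjusted p alone 6 of the factors were higher and 3 lower, against the same 32.9% and 30.0%, and their median was 0.057. TLX3 passed the filter through its VPA-treated libraries alone.

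**Figure D4:**
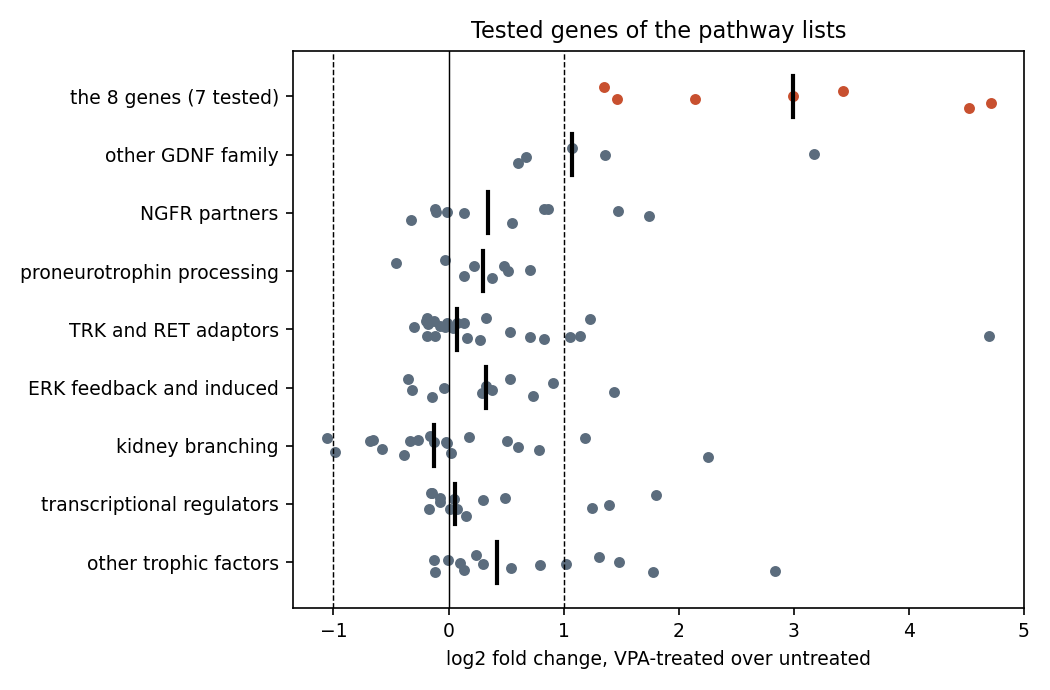
Log2 fold changes, VPA-treated over untreated, of the tested genes of 9 lists (points, with vertical scatter for legibility only), and the median of each list (black bars). Dashed lines mark the thresholds of 1 and -1. The 7 tested genes of the neurotrophin and GDNF systems have a median of 2.99 and all lie above 1, while the adaptors have a median of 0.077 and the kidney branching genes one of -0.13.

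Of the genes next to the 8, taken from RefSeq as the nearest gene with counts on either side, 9 were tested. Of these 1 was up-regulated, and over all tested genes the share was 12.0%. NXPH3, 60863 bases beyond NGFR, was that gene, going from 30, 15 and 16 to 105, 91 and 88 counts, with a log2 fold change of 2.09. ATRNL1, 107926 bases from GFRA1, passed the adjusted p alone at 0.74. PHB1 beside NGFR, BMS1 beside RET, WDR70 beside GDNF and MRPL46 beside NTRK3 had log2 fold changes of -0.26, -0.27, -0.20 and -0.27 and were lower by adjusted p alone. Of all tested genes 32.9% were higher and 30.0% lower by adjusted p alone. LOC101927603, CSGALNACT2-DT and LOC124902510 passed neither threshold.

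Markers of several cell types moved in the same libraries. Of 7 tested neuronal markers 6 were up-regulated, against 12.0% of all tested genes. The sums of normalized counts given here cover all listed markers of a type, tested or not. For neurons they went from between 5425 and 5743 to between 10598 and 11337, mostly on NEFM and NEFL. The neuronal markers STMN2, ELAVL3 and ELAVL4 and the fibroblast marker COL1A2 had too few counts to be tested. SNAP25 among the neuronal markers, and DCN among the fibroblast markers, passed the filter through their VPA-treated libraries alone. All 5 tested fibroblast markers and 3 of 4 tested epithelial markers were up-regulated, with sums of 549 to 611 against 2038 to 2233 and of 1535 to 1711 against 2772 to 2970. Among Schwann cell and neural crest markers 1 of 3 tested was up-regulated, with sums of 181 to 215 against 397 to 439. Of 3 tested sympathoadrenal markers none was called, with sums of 86.8 to 100 against 130 to 149, and of the leukocyte markers the 1 tested was not called, with sums of 19.7 to 35.7 against 35.4 to 46.0. Of 6 tested embryonic kidney markers 1, PAX2, was up-regulated, and the sums were 3171 to 3305 against 2670 to 2752, while PAX8 had a total of 2 counts. SOX10, TFAP2B, PHOX2A, DBH and KRT19 were at 0 in every library, as was SYP on chromosome X, where all 1437 listed genes are at 0. The part of other cell types in the increase of the 7 genes was not tested.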

How the data were processed

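RNA was measured in 3 untreated and 3 VPA-treated libraries of HEK293T cells (strand-specific mRNA libraries, DNBSEQ). The authors removed poor reads (SOAPnuke), mapped the rest on hg38 (STAR) and used htseq-count for reads per gene, and the deposited values are raw counts. The submitters' processing notes give STAR 2.7.10b and HTSeq 2.0.1. The annotation and strand setting are not given in the sources used here. The 5 summary lines of the counting were left out, among them reads off any gene at 6.80% to 7.69%.

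The main test was the quasi-likelihood test of edgeR 4.0.16 (R 4.3.3), robust, on TMM-normalized libraries, and treatment was its only term. Genes were kept by filterByExpr at a count minimum of 10, the prior count was 0.125, and p-values were adjusted by Benjamini-Hochberg over 15298 genes. The F statistic gave the standard errors (fold change on the log2 scale over the root of F). Replicates differed by more than sampling noise (chi-square per gene 1.62 to 4.80), and the biological coefficient of variation was 3.83%. The 8 genes and all lists were chosen with earlier results of these data known. Genes were named from each other list as the 4 with the largest log2 fold change past the adjusted p, and the other genes of both receptor families were named, except some that are not reported here. Coordinates and start sites are from RefSeq (GRCh38.p14) and lengths from GENCODE 44. The alternatives were DESeq2 1.42.0, other scalings and filters, glmTreat, an FDR of 0.01, the replicate block, a larger prior count (2) and leaving out each library.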

Additional observations from a re-analysis of the deposited data

How the results depend on the processing

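The up-regulation of the 7 tested genes kept its direction in all 117 comparisons of a gene under an alternative, and its call in 116, the exception being GDNF with glmTreat. The FDR of 0.01 and glmTreat reuse the fold changes of the main fit, so the direction could not differ there. A larger prior count left the adjusted p unchanged. The 117 are therefore not independent. The number of up-regulated members was 7 with every library left out in turn and with DESeq2, each other scaling, no filter, a prior count of 2, an FDR of 0.01 and the replicate block. It was 6 with glmTreat and 5 with at least 10 counts in every library, where BDNF and NTRK3 were not tested. The up-regulated share of all tested genes was 7.51% and 8.49% under these settings. In the other edgeR alternatives it was between 9.56% (no filter) and 16.4% (ribosomal protein scaling). DESeq2 called 1974 of all 47470 genes up-regulated, but 21117 of the 47470 had no counts. No member was down-regulated or lower by adjusted p alone under any alternative. With 1 library left out the log2 fold change was between 4.32 and 4.90 for BDNF, 4.19 and 5.06 for NTRK3, 3.24 and 3.56 for NGFR, 2.86 and 3.19 for NTRK2, 2.05 and 2.28 for RET, 1.38 and 1.61 for GDNF and 1.27 and 1.45 for GFRA1. Over all genes 1833 were up-regulated and 77 down-regulated. These counts were 1149 and 8 with glmTreat, 1179 and 43 with at least 10 counts in every library, 2510 and 17 when scaled on ribosomal protein genes, 2123 and 38 with library totals and 2519 and 162 without a filter. The median of all tested genes was raised from 0.0058 to 0.14 by library totals and to 0.28 by ribosomal protein scaling, less than the smallest log2 fold change of the members. The difference in the log2 ratio of NTRK2 to NTRK3 was -0.16 with 2 added to each count and between -1.64 and -0.91 with 1 library left out. That of RET to GFRA1 was between 0.77 and 0.83 and that of NTRK2 to NGFR between -0.58 and -0.36 with 1 library left out.

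With the replicate block 7 members were up-regulated, and no call of a member changed. Deviations of same-numbered libraries correlated with r of 0.14, 0.021 and 0.080 over the 15298 tested genes. Over the 11076 genes whose mean reached 100 counts or more, r was 0.40, 0.14 and 0.33. Libraries of different numbers had r between -0.32 and 0.053 there, and in this set every library correlated best with its own number. Over all tested genes untreated library 2 had a higher r with VPA-treated library 3, at 0.031. The deviations were taken from means of 3 libraries, so the r values depend on each other. Same-numbered libraries may therefore share some structure, which the labels do not state. The main test did not pair them. The depth limits NTF3, which cannot be judged, and BDNF and NTRK3, whose untreated levels rest on 4 and 2 counts.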

Other observations

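Other neurotrophic factors and receptors were read from a separate list of 19 genes, of which 14 were tested. Of these 5 (35.7%, against 12.0% of all tested genes) were up-regulated and none was down-regulated. The median log2 fold change was 0.42. PTPRZ1, a receptor phosphatase that binds pleiotrophin, had 50, 61 and 51 counts in untreated and 425, 417 and 420 in VPA-treated libraries, with a log2 fold change of 2.84 and a standard error of 0.10 (adjusted p = 1.05e-15, edgeR). Its ligand pleiotrophin (PTN) had 1.30. PTN had 2 untreated libraries over the limit of the filter, too few to pass without VPA-treated ones. CNTFR, the receptor subunit that binds ciliary neurotrophic factor, had 1.78, while CNTF itself had at most 3 counts in a library. The neuregulin receptors ERBB3 and ERBB4 had 1.49 and 1.02.

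The tested genes with counts most like each member were taken by the Euclidean distance of log2 CPM over the 6 libraries, as a description. These were KISS1R and MYOD1 for BDNF (distances 0.447 and 0.747), RASD2 and MEGF10 for NTRK2 (0.353 and 0.417), REM1 and DGKB for NTRK3 (0.157 and 0.407), and SYNPO and MEGF10 for NGFR (0.522 and 0.613). They were ACVRL1 and C11orf96 for GDNF (0.279 and 0.329), PLEKHA6 and RXRG for RET (0.220 and 0.240), and RORB and APH1B for GFRA1 (0.269 and 0.278).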
